A study of Rattus norvegicus with 16 samples.

Results

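Transcripts of 10 enzymes that remove superoxide and peroxides were followed in rat kidney cortex after repeated injection of an iron chelate. They are the superoxide dismutases Sod1, Sod2 and Sod3, catalase (Cat), the glutathione peroxidases Gpx1 and Gpx3, and the peroxiredoxins Prdx1, Prdx3, Prdx5 and Prdx6. Every probe whose gene name on the array equals one of these symbols was taken, which gave 12 probes for the 10 genes out of 34742 gene and transcript names on the array; Gpx1 and Prdx6 have 2 probes each. They were chosen with earlier results of these data known.

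The animals were male Jcl:SD rats, a Sprague-Dawley stock, either heterozygous for a BRCA1 mutation (BRCA1+/-) or wild type, and each genotype gave 8 of the 16 arrays. BRCA1 is a DNA repair gene; the labels do not say how the mutant allele was made. The agent, ferric nitrilotriacetate (Fe-NTA), carries iron into the renal proximal tubule and drives formation of hydroxyl radicals and lipid peroxides there. Rats received it into the peritoneum from 4 weeks of age, 5 times per week, at 5 mg iron/kg for the first 2 doses, 7 mg iron/kg for the last 3 of the first week and 10 mg iron/kg in weeks 2 and 3. Kidneys were collected 48 h after the final injection. The groups in BRCA1+/- rats were untreated (2 arrays), Fe-NTA for 1 week (3 arrays) and Fe-NTA for 3 weeks (3 arrays), and wild-type rats had the same 3 groups with 2, 3 and 3 arrays. The labels give neither an age nor a vehicle for the untreated rats, so treatment cannot be told apart from either, and in a comparison of 3 weeks with 1 week the time, the age and the dose cannot be told apart. The labels count 18 BRCA1+/- and 17 wild-type rats at the start. Nothing states that each array holds a separate animal, so the p-values measure the spread between these arrays.

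As background, superoxide dismutases turn superoxide into hydrogen peroxide, with a copper-zinc enzyme in the cytosol (Sod1), a manganese enzyme in the mitochondrial matrix (Sod2) and a secreted copper-zinc enzyme that binds the extracellular matrix (Sod3). Hydrogen peroxide is then removed by catalase in peroxisomes, by the selenium enzymes Gpx1 inside the cell and Gpx3 in plasma, and by peroxiredoxins, which use a reactive cysteine. The proximal tubule is rich in peroxisomes and mitochondria, and it is the main source of the Gpx3 that circulates in plasma.

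Expression is given as scaled log2 signal: the log2 of the processed spot signal minus the 75th percentile of the same array, so that a difference of 1 is a factor of 2. All 12 probes were well above background on all 16 arrays, none was saturated, and the lowest processed signal among them was 35.0. Of 45598 probes on the array, 32.7% to 60.4% were well above background, and the 75th percentile of the signal ran from 20.1 to 78.5, with both wild-type control arrays among the dimmest at 20.1 and 25. Across genes, the correlation of any 2 arrays of a group was between 0.964 and 0.981, apart from the pairs with replicate 3 of the wild-type 1-week group, at 0.905 and 0.908. The counts and member changes that rest on that array are given with and without it. The arrays lay on 2 slides, and every group had arrays on both. Levels of different genes are not compared, because probes differ in brightness.

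The arrays carry 60-base probes, and those for which the sequence lies in the coding part of the transcript are printed here as deposited, to show what was hybridised for catalase, both glutathione peroxidases and the cytosolic and mitochondrial peroxiredoxins. The Gpx1 probe printed, which starts at base 426 of its transcript, is the dimmer of its 2 and was not the one fitted; the brighter, fitted probe starts at base 741 and is not printed.
Cat: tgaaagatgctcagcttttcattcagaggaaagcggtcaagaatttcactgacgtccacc
Gpx3: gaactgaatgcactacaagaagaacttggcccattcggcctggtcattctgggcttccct
Gpx1: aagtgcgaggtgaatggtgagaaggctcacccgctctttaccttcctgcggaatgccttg
Prdx1: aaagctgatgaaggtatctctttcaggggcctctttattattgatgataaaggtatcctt
Prdx5: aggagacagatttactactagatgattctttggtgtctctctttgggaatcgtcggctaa

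Promoters of 8 of the 10 genes were matched by symbol in RefSeq (GRCr8), each covering 250 bases before to 50 bases after the annotated start; Sod3 and Prdx6 were not among them. They were searched on both strands for 4 motifs, without regard to overlaps. The motifs were the core of the antioxidant response element (TGACNNNGC), to which NRF2, the main activator of antioxidant genes, binds, and the CCAAT box (CCAAT), the GC box (GGGCGG) and the TATA box (TATAAA) of general promoters. The CCAAT box was found in Cat, Gpx3 and Sod1, in 3 of 8 members against 38.41% of 19005 protein-coding promoters. The antioxidant response element core was found in Prdx1, Prdx5 and Sod2, in 3 of 8 against 12.7%. The GC box was found in 7 of 8, all but Cat, against 43.13%, and the TATA box in Prdx1 and Sod1, 2 of 8 against 13.1%. A match describes letters and not binding. The promoters of the 3 genes that fell in all 4 comparisons with controls and of Prdx1 are shown, with CCAAT boxes and the antioxidant response element core in capitals.
Cat, GRCr8 chr3:110329477-110329776, minus strand: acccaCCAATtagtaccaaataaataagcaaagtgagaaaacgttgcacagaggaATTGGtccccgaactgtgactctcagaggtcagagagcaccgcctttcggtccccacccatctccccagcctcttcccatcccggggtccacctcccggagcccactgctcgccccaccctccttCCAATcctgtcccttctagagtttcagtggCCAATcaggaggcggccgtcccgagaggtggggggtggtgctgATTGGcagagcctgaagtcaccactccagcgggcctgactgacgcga
Gpx3, GRCr8 chr10:39529085-39529384, plus strand: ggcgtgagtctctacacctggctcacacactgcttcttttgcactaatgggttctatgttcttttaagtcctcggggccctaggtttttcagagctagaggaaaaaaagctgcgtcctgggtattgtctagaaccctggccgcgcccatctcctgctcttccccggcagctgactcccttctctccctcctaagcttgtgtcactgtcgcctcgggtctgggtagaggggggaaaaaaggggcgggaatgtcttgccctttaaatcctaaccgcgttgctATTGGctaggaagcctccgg
Sod1, GRCr8 chr11:42942573-42942872, plus strand: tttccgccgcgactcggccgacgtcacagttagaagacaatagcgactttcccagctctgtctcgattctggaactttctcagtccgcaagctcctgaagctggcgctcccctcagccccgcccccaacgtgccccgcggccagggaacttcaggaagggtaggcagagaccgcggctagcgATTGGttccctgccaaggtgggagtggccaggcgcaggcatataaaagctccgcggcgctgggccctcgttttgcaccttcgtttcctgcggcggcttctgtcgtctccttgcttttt
Prdx1, GRCr8 chr5:135383656-135383955, plus strand: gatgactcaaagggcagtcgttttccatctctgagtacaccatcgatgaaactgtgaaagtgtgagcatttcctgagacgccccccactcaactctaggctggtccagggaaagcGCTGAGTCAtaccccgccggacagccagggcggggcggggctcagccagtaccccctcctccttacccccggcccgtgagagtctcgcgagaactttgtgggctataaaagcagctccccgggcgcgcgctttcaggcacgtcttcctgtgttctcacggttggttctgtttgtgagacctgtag

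Cat, Gpx3 and Sod1 were lower after Fe-NTA in both genotypes and at both times, Sod3 was higher at 3 weeks in both genotypes, and 2 of the 4 peroxiredoxins, Prdx3 and Prdx6, were called in no comparison with the settings used here. In BRCA1+/- cortex 3 of the 10 genes fell at 1 week and none rose; at 3 weeks 3 fell and Sod3 rose. In wild-type cortex 6 fell at 1 week and none rose, whereas at 3 weeks 4 fell and Sod3 rose. Calls are by limma at a Benjamini-Hochberg adjusted p under 0.05 over all 16007 genes tested. Against these counts, 7.45% of all genes were called in BRCA1+/- rats at 1 week (3.2% lower, 4.25% higher) and 15.9% at 3 weeks (6.52% lower, 9.33% higher). In wild-type rats 27.2% of all genes were called at 1 week (14.3% lower, 12.9% higher) and 14.3% at 3 weeks (5.54% lower, 8.77% higher). The median log2 change of the 10 members was -0.71 and -0.51 in BRCA1+/- rats at 1 and 3 weeks, and -1.17 and -0.56 in wild-type rats, beside medians over all genes between -0.03 and 0.01. Scaling by the percentile over probes detected on all arrays moved the all-gene median in wild-type rats at 1 week to 0.19 and the split of calls to 2907 higher and 1810 lower, against 2058 higher and 2288 lower with the scaling used here. A test over the 6 groups at once called 7 of the 10, all but Prdx1, Prdx3 and Prdx6, while it called 26.6% of all genes. Without replicate 3 of the wild-type 1-week group the share of all genes called was 14.4% and 29.5% in BRCA1+/- rats at 1 and 3 weeks and 33.4% and 24.3% in wild-type rats. Members called were then 5 lower in BRCA1+/- rats at 1 week, where Sod2 (-1.05, adjusted p = 0.035) and Gpx1 (-0.94, adjusted p = 0.039) were added, and 3 lower and Sod3 higher at 3 weeks. In wild-type rats they were 6 lower and Sod3 higher at 1 week, and 4 lower and Sod3 higher at 3 weeks. All comparisons with controls within a genotype share the same 2 control arrays. Where treated arrays are said below to lie wholly above or below controls, the share of all genes doing so was not counted. Such separation describes these arrays and is not a test.

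**Figure D1:**
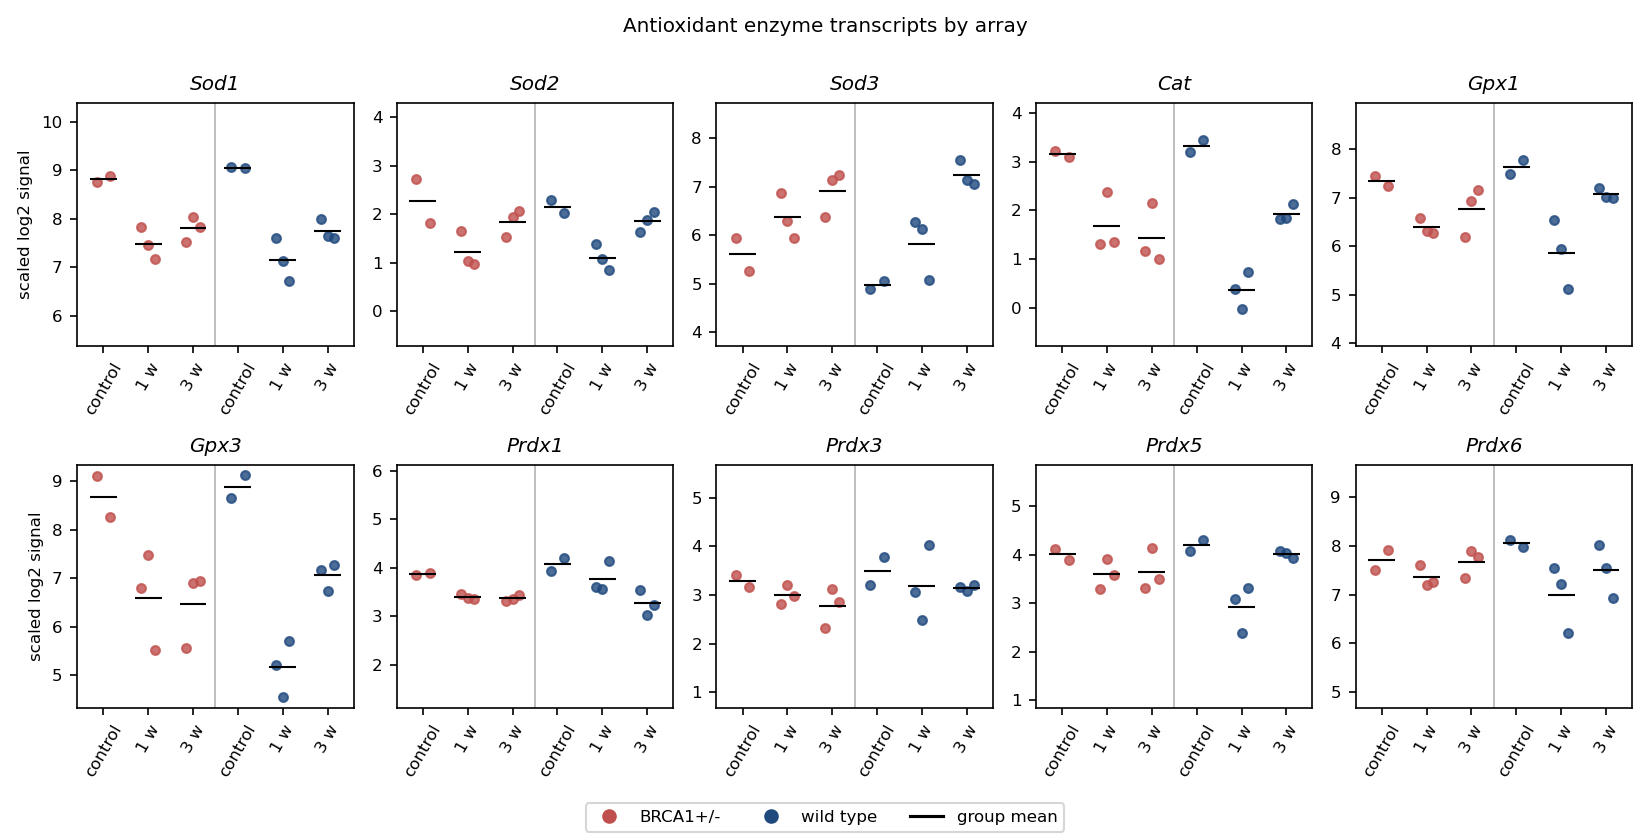
Scaled log2 signal (y axis, spanning 5 units in each panel) of the 10 enzymes on each of the 16 arrays, for untreated, 1-week and 3-week groups of BRCA1+/- (red, left) and wild-type rats (blue, right); points are arrays and bars are group means. Cat, Gpx3 and Sod1 lie below their controls on every treated array, and Sod3 lies above them on every 3-week array.

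**Figure D2:**
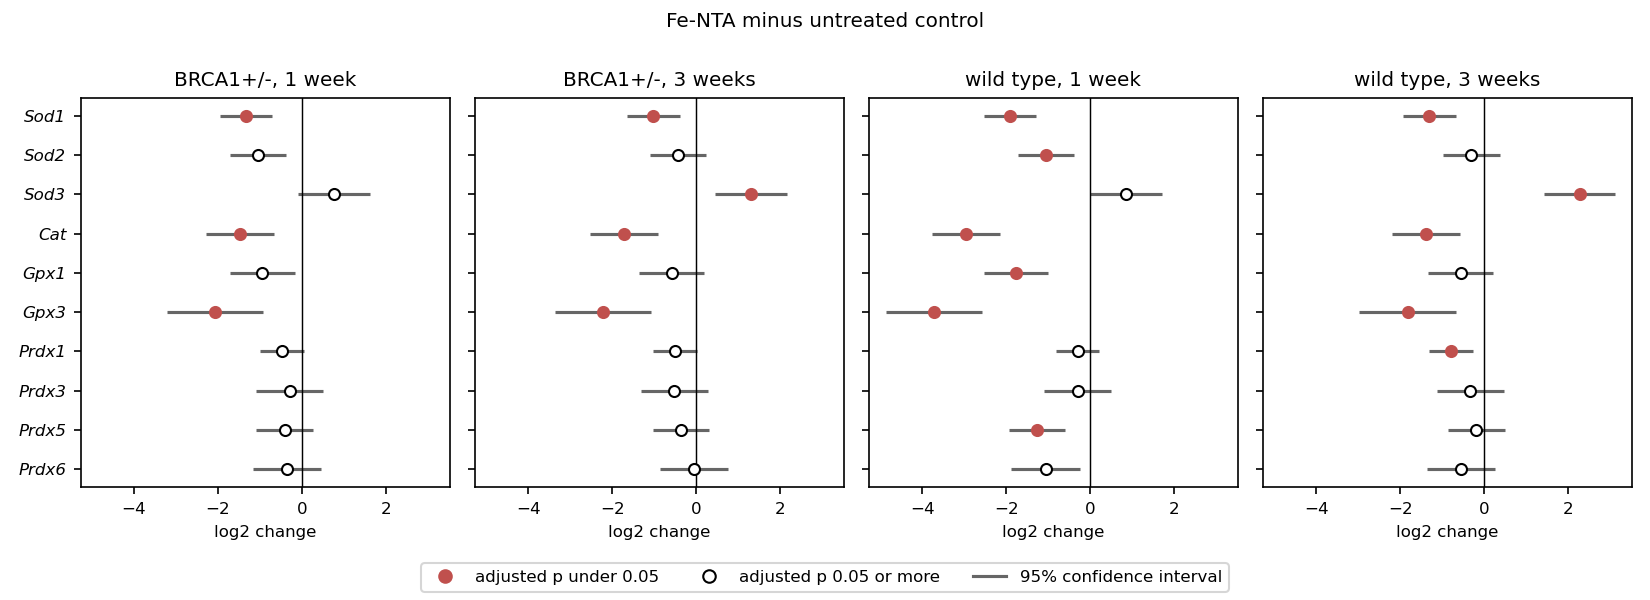
Log2 change (x axis) of each enzyme after Fe-NTA relative to the untreated controls of its genotype, with 95% confidence intervals that are not adjusted for the number of genes; filled points have an adjusted p under 0.05. Gpx3 in wild-type rats at 1 week fell by 3.72, and Sod3 in wild-type rats at 3 weeks was 2.27 higher.

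Sod1, the cytosolic dismutase, measured 8.75 and 8.89 on the untreated BRCA1+/- arrays, 7.83, 7.47 and 7.17 after 1 week and 7.53, 8.04 and 7.83 after 3 weeks. In wild-type cortex it measured 9.06 and 9.05 untreated, 7.60, 7.13 and 6.71 after 1 week and 8.00, 7.64 and 7.60 after 3 weeks. Every treated array lay below every control array of its genotype, and the wild-type controls were almost equal. The log2 change in BRCA1+/- rats was -1.33 ± 0.29 (SE), adjusted p = 0.013 at 1 week and -1.02 ± 0.29 (SE), adjusted p = 0.03 at 3 weeks. In wild-type rats it was -1.91 ± 0.29 (SE), adjusted p = 2.7e-04 at 1 week, a 3.76-fold lower level, and -1.31 ± 0.29 (SE), adjusted p = 0.0085 at 3 weeks. The 1-week change in wild-type rats was -1.89 within slide 1 and -1.94 within slide 2, and -1.69 without replicate 3 of the treated group (adjusted p = 5.1e-04). That call held with any array left out. The wild-type 3-week call was lost without either wild-type control and was -0.63 with the normexp background correction (adjusted p = 0.33). All 3 of the other calls were lost with the normexp correction and without the filter on dim probes. The BRCA1+/- calls were also lost without either BRCA1+/- control, at 1 week also without treated replicate 3, and at 3 weeks also without treated replicate 1 or 3.

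Sod2, the mitochondrial dismutase, measured 2.73 and 1.81 on untreated BRCA1+/- arrays, 1.65, 1.04 and 0.97 after 1 week and 1.52, 1.93 and 2.06 after 3 weeks. Wild-type arrays measured 2.30 and 2.01 untreated, 1.38, 1.07 and 0.86 after 1 week and 1.62, 1.87 and 2.05 after 3 weeks. The 1-week arrays were below the controls in both genotypes, and the 3-week arrays overlapped with them. Only the wild-type 1-week change was called, at -1.05 ± 0.32 (SE), adjusted p = 0.023. The same comparison in BRCA1+/- rats gave -1.05 ± 0.32 (SE), adjusted p = 0.059. The 2 estimates were near equal and all groups share 1 spread, so the adjusted p-values differ through the adjustment, made within each comparison. The BRCA1+/- control arrays lay far apart. The BRCA1+/- change passed the threshold with array brightness as a covariate (-1.13, adjusted p = 0.014) and with quantile scaling (adjusted p = 0.0496). It also passed with the mean over a gene's probes (adjusted p = 0.0493). The wild-type change was -0.93 (adjusted p = 0.044) without replicate 3 of the 1-week group. Its call was lost without either wild-type control, without the filter on dim probes and in a fit of the groups compared alone, and with the normexp correction the change was -0.39 (adjusted p = 0.48).

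Sod3, the secreted dismutase, was the only member called higher than in controls. It measured 5.95 and 5.26 on untreated BRCA1+/- arrays, 6.88, 6.29 and 5.95 after 1 week and 6.37, 7.15 and 7.23 after 3 weeks. Wild-type arrays measured 4.90 and 5.05 untreated, 6.28, 6.13 and 5.07 after 1 week and 7.56, 7.13 and 7.05 after 3 weeks. All 3-week arrays of both genotypes were above their controls, while the lowest 1-week arrays came down to about the level of the highest control. At 3 weeks the change in BRCA1+/- rats was 1.31 ± 0.40 (SE), adjusted p = 0.038, and that in wild-type rats was 2.27 ± 0.40 (SE), adjusted p = 0.0019, a 4.83-fold higher level. The wild-type value was 2.29 within slide 1 and 2.15 within slide 2, and 1.64 with array brightness as a covariate (adjusted p = 0.042). It was called with any array left out, whereas the BRCA1+/- call was lost without either BRCA1+/- control, without treated replicate 2 or 3, or without replicate 2 of the wild-type 3-week group. It was also lost with the normexp correction (1.46, adjusted p = 0.097) and without the filter on dim probes (1.31, adjusted p = 0.13). At 1 week the changes were 0.77 ± 0.40 (SE), adjusted p = 0.27 in BRCA1+/- rats and 0.85 ± 0.40 (SE), adjusted p = 0.13 in wild-type rats. Without replicate 3 of the wild-type 1-week group, whose Sod3 signal of 5.07 was the lowest of its group, the wild-type contrast was called, at 1.23 (adjusted p = 0.019). It was called with all arrays too when scaled by quantiles, at 1.1 (adjusted p = 0.037), or by the percentile over probes detected on all arrays, at 1.07 (adjusted p = 0.026).

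Catalase, the peroxisomal enzyme, gave 3.22 and 3.10 on the untreated BRCA1+/- arrays, 1.31, 2.39 and 1.35 after 1 week and 1.16, 2.16 and 1.00 after 3 weeks. On wild-type arrays it gave 3.20 and 3.45 untreated, 0.38, -0.02 and 0.73 after 1 week and 1.82, 1.84 and 2.14 after 3 weeks. All treated arrays were below the controls of their genotype, and in wild-type rats the 3 groups were fully separated, with the 1-week group lowest. The log2 change in BRCA1+/- rats was -1.48 ± 0.38 (SE), adjusted p = 0.03 at 1 week and -1.72 ± 0.38 (SE), adjusted p = 0.0085 at 3 weeks. In wild-type rats it was -2.96 ± 0.38 (SE), adjusted p = 7.4e-05 at 1 week, a 7.8-fold lower level, and -1.39 ± 0.38 (SE), adjusted p = 0.025 at 3 weeks. The 1-week change in wild-type rats was -2.90 within slide 1 and -3.22 within slide 2, and -3.15 without replicate 3 of the treated group. The 3-week change in wild-type rats had an adjusted p of 0.15 with array brightness as a covariate, at -1.24. With the normexp background correction, the 1-week change in wild-type rats was -1.68 and the 3-week change -0.68 (adjusted p = 0.15). The wild-type 1-week call held with any array left out; the wild-type 3-week call was lost without the filter on dim probes, without either control, or without treated replicate 1 or 2. Both calls in BRCA1+/- rats were lost without either control, and that at 1 week also without treated replicate 1 or 3, without the filter on dim probes (adjusted p = 0.12), with the percentile over probes detected on all arrays (adjusted p = 0.056) and from the groups compared alone (adjusted p = 0.055).

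Gpx3, the plasma glutathione peroxidase, had the largest fall of the 10 genes in every comparison with controls. It measured 9.10 and 8.26 on untreated BRCA1+/- arrays, 6.80, 7.47 and 5.52 after 1 week and 5.57, 6.89 and 6.95 after 3 weeks. In wild-type cortex the values were 8.66 and 9.12 untreated, 5.22, 4.55 and 5.72 after 1 week and 7.16, 6.75 and 7.26 after 3 weeks. No treated array reached the controls of its genotype, and the BRCA1+/- 1-week arrays were the most scattered of the 6 groups. Gpx3 in BRCA1+/- rats changed by -2.08 ± 0.54 (SE), adjusted p = 0.03 at 1 week and by -2.21 ± 0.54 (SE), adjusted p = 0.014 at 3 weeks. In wild-type rats it changed by -3.72 ± 0.54 (SE), adjusted p = 1.6e-04 at 1 week, which is 13.2-fold lower, and by -1.83 ± 0.54 (SE), adjusted p = 0.034 at 3 weeks. The wild-type 1-week value was -3.65 within slide 1 and -4.11 within slide 2, and -4.0 without replicate 3 of that group. The wild-type 3-week change missed the threshold with array brightness as a covariate (-2.31, adjusted p = 0.058) and with the omission of either wild-type control or any of the 3 treated arrays. It also missed it with the normexp correction (-1.19, adjusted p = 0.26), quantile scaling (adjusted p = 0.095), no filter on dim probes (adjusted p = 0.11) or the replicate number as a block (adjusted p = 0.055). The BRCA1+/- call at 1 week was lost without either control or treated replicate 1 or 3, and with the replicate number as a block (adjusted p = 0.054), the normexp correction (adjusted p = 0.11), quantile scaling (adjusted p = 0.093), no filter (adjusted p = 0.1) or the groups compared alone (adjusted p = 0.063). That at 3 weeks was lost without control replicate 1 and with the normexp correction (-2.08, adjusted p = 0.058).

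Gpx1, the intracellular selenium peroxidase, was read by 2 probes. The brighter, which was used in the fit, gave 7.44 and 7.23 on untreated BRCA1+/- arrays, 6.58, 6.32 and 6.28 after 1 week and 6.18, 6.94 and 7.17 after 3 weeks. On wild-type arrays it gave 7.50 and 7.78 untreated, 6.54, 5.94 and 5.13 after 1 week and 7.20, 7.01 and 7.00 after 3 weeks. Treated arrays lay below their controls throughout, and the call was made in wild-type rats at 1 week only, at -1.77 ± 0.36 (SE), adjusted p = 0.0023. The other 3 changes were -0.94 and -0.57 in BRCA1+/- rats at 1 and 3 weeks and -0.57 in wild-type rats at 3 weeks, with adjusted p-values of 0.13, 0.28 and 0.32. The coding probe printed above gave -1.67 ± 0.32 (SE), adjusted p = 0.0014 for the wild-type 1-week change, and was not called in the other 3. Its changes there were -0.71 and -0.99 in BRCA1+/- rats at 1 and 3 weeks and -0.87 in wild-type rats at 3 weeks. The adjusted p-values were 0.20, 0.050001, just outside the threshold, and 0.081. At 3 weeks this probe thus fell further in both genotypes than the brighter probe. The 2 probes disagreed on replicate 3 of the wild-type 1-week group, which was the lowest of its group for the brighter probe (5.13) and the highest for the coding probe (4.28). The normexp correction ended the wild-type call, at -1.29 (adjusted p = 0.13). The call held with any array left out, and without replicate 3 the brighter probe's change was -1.40 (adjusted p = 0.0039).

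**Figure D3:**
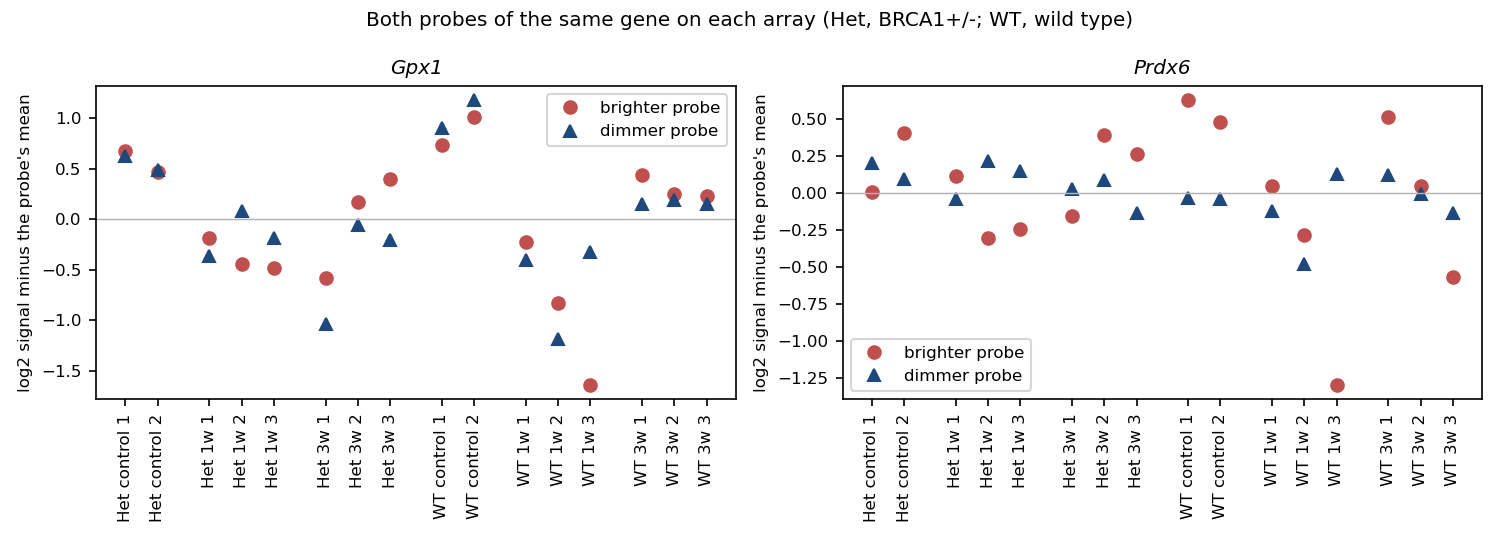
Log2 signal of both probes of Gpx1 (left) and Prdx6 (right) on each array, minus the mean of that probe over the 16 arrays; circles are the brighter probe used in the fits and triangles the dimmer. On replicate 3 of the wild-type 1-week group (WT 1w 3) the brighter probes of both genes are at their lowest of all arrays and the dimmer probes are not.

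Prdx1, a cytosolic peroxiredoxin and a known NRF2 target, gave 3.86 and 3.89 on untreated BRCA1+/- arrays, 3.47, 3.37 and 3.37 after 1 week and 3.31, 3.36 and 3.45 after 3 weeks. The wild-type arrays gave 3.95 and 4.20 untreated, 3.61, 3.57 and 4.14 after 1 week and 3.54, 3.04 and 3.24 after 3 weeks. The treated BRCA1+/- arrays were all below their controls in a narrow band, and it was called higher in no comparison with controls. It passed the test in wild-type rats at 3 weeks only, at -0.80 ± 0.24 (SE), adjusted p = 0.04, and this call held in 5 of 16 fits that left out an array: omission of either wild-type control, treated replicate 2 or 3, or any of 7 BRCA1+/- arrays ended it. In BRCA1+/- rats the changes were -0.47 ± 0.24 (SE), adjusted p = 0.27 at 1 week and -0.50 ± 0.24 (SE), adjusted p = 0.16 at 3 weeks. With array brightness as a covariate the wild-type 3-week change was -0.68 (adjusted p = 0.19), and it was lost without the filter on dim probes, with quantile scaling, with the percentile over probes detected on all arrays, and with the normexp correction, which gave -0.14 (adjusted p = 0.69).

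Prdx3, the peroxiredoxin of the mitochondrial matrix, was called in no comparison. Its arrays measured 3.40 and 3.17 untreated, 2.81, 3.21 and 2.98 after 1 week and 2.33, 3.12 and 2.86 after 3 weeks in BRCA1+/- rats. In wild-type rats they measured 3.20 and 3.78 untreated, 3.06, 2.49 and 4.03 after 1 week and 3.17, 3.08 and 3.21 after 3 weeks. Within the wild-type 1-week group the arrays spread from the lowest but 1 to the highest value of all 16. The 95% intervals of its log2 change were -1.08 to 0.51 and -1.31 to 0.28 in BRCA1+/- rats at 1 and 3 weeks, and -1.09 to 0.50 and -1.13 to 0.46 in wild-type rats. A fall of 1 log2 unit is therefore within each interval, and in BRCA1+/- rats at 3 weeks the interval reaches down to -1.31. Each interval also includes rises, up to 0.51 in BRCA1+/- rats at 1 week.

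Prdx5, a peroxiredoxin found in mitochondria, peroxisomes and cytosol, measured 4.12 and 3.89 on untreated BRCA1+/- arrays, 3.30, 3.91 and 3.58 after 1 week and 3.30, 4.13 and 3.50 after 3 weeks. On wild-type arrays it measured 4.08 and 4.31 untreated, 3.09, 2.38 and 3.31 after 1 week and 4.07, 4.04 and 3.92 after 3 weeks. The wild-type 1-week arrays stood below all other wild-type arrays, and the BRCA1+/- groups overlapped. The call was in wild-type rats at 1 week, at -1.27 ± 0.31 (SE), adjusted p = 0.0079, and it was -1.46 without replicate 3 of that group. It was lost without wild-type control replicate 2 and from the groups compared alone (adjusted p = 0.1), and the normexp correction gave -0.71 (adjusted p = 0.12). At 3 weeks the wild-type change was -0.19 ± 0.31 (SE), adjusted p = 0.74.

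Prdx6, a cytosolic peroxiredoxin with phospholipase activity, was read by 2 probes that did not behave alike. The brighter gave 7.51 and 7.91 on untreated BRCA1+/- arrays, 7.62, 7.20 and 7.26 after 1 week and 7.34, 7.89 and 7.77 after 3 weeks. On wild-type arrays it gave 8.13 and 7.98 untreated, 7.55, 7.22 and 6.21 after 1 week and 8.01, 7.55 and 6.93 after 3 weeks. The wild-type 1-week arrays lay below their controls and the other treated groups overlapped with theirs. Its change in wild-type rats at 1 week was -1.06 ± 0.38 (SE), adjusted p = 0.051, just outside the threshold. It was called with the percentile over probes detected on all arrays (-0.85), with each probe tested, and without wild-type 1-week replicate 1 (-1.34, adjusted p = 0.022) or wild-type 3-week replicate 1 (adjusted p = 0.045) or 3 (adjusted p = 0.043). The dimmer probe gave 3.22 and 3.21 untreated, 3.13, 2.77 and 3.38 after 1 week and 3.37, 3.25 and 3.12 after 3 weeks in wild-type rats. For that probe the 1-week change was -0.12 ± 0.23 (SE), adjusted p = 0.74, and the groups overlapped. Without replicate 3 the brighter probe's change was -0.67 (adjusted p = 0.13).

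Grouped by compartment, falls were called in all of them only in wild-type rats at 1 week. Each gene was counted in 1 compartment, and Prdx5, found also in peroxisomes and cytosol, was counted as mitochondrial. In wild-type rats at 1 week the genes called lower were 2 of the 4 cytosolic (Sod1, Gpx1), 2 of the 3 mitochondrial (Sod2, Prdx5), 1 of the 2 secreted (Gpx3) and the peroxisomal Cat. In the other 3 comparisons with controls no mitochondrial member was called. Sod2 in BRCA1+/- rats at 1 week nonetheless changed by -1.05 (adjusted p = 0.059), as much as in wild-type rats. The 2 secreted enzymes went opposite ways in both genotypes at 3 weeks, with Gpx3 lower and Sod3 higher.

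Between 1 and 3 weeks, 5 wild-type levels were higher at the later time and no BRCA1+/- level passed the test. In wild-type rats 5 of 10 members were higher at 3 weeks than at 1 week, where 8.33% of all genes were called, 5.55% higher and 2.78% lower. These were Gpx3 (1.90 ± 0.48 (SE), adjusted p = 0.025), Cat (1.57 ± 0.34 (SE), adjusted p = 0.011), Sod3 (1.42 ± 0.36 (SE), adjusted p = 0.024), Gpx1 (1.20 ± 0.32 (SE), adjusted p = 0.034) and Prdx5 (1.08 ± 0.28 (SE), adjusted p = 0.028). For Cat, Gpx1, Gpx3, Prdx5 and Sod3 the 3-week and 1-week arrays did not overlap. The same held for Sod2, higher at 3 weeks, and Prdx1, lower at 3 weeks, which were not called. The share of all genes without overlap was not counted. With all arrays, the dimmer coding probe of Gpx1 gave 0.80 (adjusted p = 0.10) and was not called. Without replicate 3 of the 1-week group, Sod3 (1.04, adjusted p = 0.074) and Gpx1 (0.83, adjusted p = 0.091) lost the call. The normexp correction ended the calls of Gpx3, Gpx1 and Sod3, and without the filter on dim probes none of the 5 was made. Leaving out another array ended between 3 and 5 of the 5 calls for 4 arrays: replicate 2 at 1 week and replicates 1, 2 and 3 at 3 weeks. Limma called no member in BRCA1+/- rats between 3 weeks and 1 week, and 0.306% of all genes; 1 member had an unadjusted p under 0.05. Changes there ran from -0.24 for Cat to 0.62 for Sod2. The difference between the genotypes in this change from 1 to 3 weeks was not tested.

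No member differed between the genotypes at the threshold. For untreated rats, 3-week rats and the average over the 3 conditions limma called no gene of the 16007, and for 1-week rats it called 0.562% of genes (0.494% higher, 0.0687% lower) and none of the 10 members. At an unadjusted p under 0.05 there were 3 members at 1 week and none in the other 3 comparisons. Cat at 1 week was the member nearest to the threshold: it measured 1.31, 2.39 and 1.35 in BRCA1+/- rats and 0.38, -0.02 and 0.73 in wild-type rats, with no overlap. Prdx1 did not overlap at 1 week either, with BRCA1+/- rats lower. In untreated rats Sod1, Gpx1, Prdx1 and Prdx6, lower in BRCA1+/- rats, and Sod3, higher, also did not overlap, although no gene was called there. With 2 arrays in each untreated group, such separation alone does not show a difference. The share of all genes without overlap was not counted. The Cat difference at 1 week was 1.32 ± 0.34 (SE), adjusted p = 0.094, with a 95% interval of 0.59 to 2.05. For Gpx3 it was 1.44 ± 0.48 (SE), adjusted p = 0.21, with an interval of 0.41 to 2.46, and for Prdx5 0.67 ± 0.28 (SE), adjusted p = 0.34, with an interval of 0.07 to 1.27. With replicate 3 of the wild-type 1-week group left out these differences were 1.5 (adjusted p = 0.12) for Cat, 1.71 (adjusted p = 0.19) for Gpx3 and 0.86 (adjusted p = 0.21) for Prdx5. The test of whether the response to 1 week of Fe-NTA differed between genotypes called no gene at all. In it Cat had 1.49 (interval 0.34 to 2.64, adjusted p = 0.51) and Gpx3 1.65 (interval 0.02 to 3.27, adjusted p = 0.65), where a positive value means a smaller fall in BRCA1+/- rats; 2 members had an unadjusted p under 0.05. Without the same array the Cat estimate was 1.67 (adjusted p = 0.33) and that of Gpx3 1.92 (adjusted p = 0.42). At 3 weeks no interaction had an unadjusted p under 0.05, and the estimates ran from -0.96 for Sod3 to 0.52 for Prdx6.

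**Figure D4:**
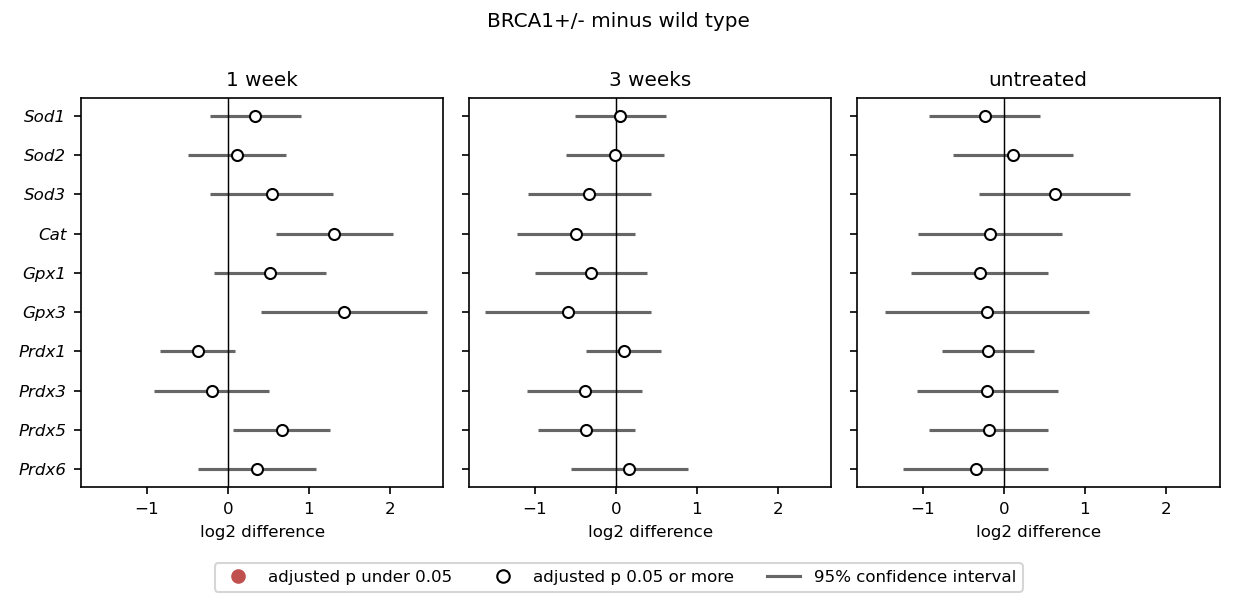
Log2 difference (x axis) of each enzyme between BRCA1+/- and wild-type rats after 1 week, after 3 weeks and untreated, with 95% confidence intervals not adjusted for the number of genes. No adjusted p is under 0.05; Cat, Gpx3 and Prdx5 at 1 week have intervals above 0.

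Of 5 relatives of these enzymes, Gpx2 and Prdx4 rose. Gpx2, a glutathione peroxidase best known from gut epithelium and an NRF2 target, measured 2.22 and 2.29 on untreated BRCA1+/- arrays, 5.75, 3.71 and 4.24 after 1 week and 5.61, 5.36 and 5.92 after 3 weeks. Wild-type arrays gave 2.10 and 1.58 untreated, 6.24, 5.96 and 4.26 after 1 week and 5.36, 5.57 and 5.39 after 3 weeks, and no treated array overlapped with its controls. It rose in all 4 comparisons: by 2.32 (adjusted p = 0.021) and 3.38 (adjusted p = 0.0012) in BRCA1+/- rats, and by 3.65 (adjusted p = 2.5e-04) and 3.60 (adjusted p = 8.7e-04) in wild-type rats. Prdx4, the peroxiredoxin of the endoplasmic reticulum, was not well above background on either wild-type control. In wild-type rats it was at least 2.04-fold higher at 1 week and at least 1.39-fold higher at 3 weeks, as the treated mean over the detection limit of the control arrays. The limma tests were of the measured log2 changes, 2.01 (adjusted p = 0.0018) and 1.46 (adjusted p = 0.024), which use the dim control values. The bounds themselves were not tested. Prdx4 in BRCA1+/- rats rose at 3 weeks (1.32 ± 0.40 (SE), adjusted p = 0.036) and was not called at 1 week (0.82 ± 0.40 (SE), adjusted p = 0.23). Gpx4, which reduces lipid peroxides in membranes, fell in wild-type rats at 1 week (-1.14 ± 0.36 (SE), adjusted p = 0.029), and the other 3 comparisons gave -0.72, -0.26 and -0.28 with no call. The wild-type 1-week changes without replicate 3 of that group were 4.26 (adjusted p = 6.6e-05) for Gpx2, 2.11 (adjusted p = 0.0029) for Prdx4 on the measured scale and -0.69 (adjusted p = 0.043) for Gpx4. Prdx2, a cytosolic peroxiredoxin, and Ccs, the chaperone that loads copper into Sod1, were called in none of the 4 comparisons, with changes between -0.27 and 0.41 for Prdx2 and between -0.64 and 0.12 for Ccs.

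Of 28 genes tested from the thiol peroxidase, thioredoxin and glutathione systems, a list that leaves out the 10 enzymes and includes Gpx2, Gpx4, Prdx2, Prdx4 and Ccs, 4 rose and 4 fell in BRCA1+/- rats at 1 week and 6 rose and 5 fell at 3 weeks. In wild-type rats 7 rose and 11 fell at 1 week, and 5 rose and 5 fell at 3 weeks, with a median of -0.75 at 1 week. Beside these and the list counts below, 3.2% of all genes fell and 4.25% rose in BRCA1+/- rats at 1 week, and 6.52% and 9.33% at 3 weeks. In wild-type rats 14.3% of all genes fell and 12.9% rose at 1 week, and 5.54% and 8.77% at 3 weeks. Srxn1, the sulfiredoxin that restores over-oxidised peroxiredoxins, rose by 1.95 ± 0.28 (SE), adjusted p = 9.4e-04 in BRCA1+/- rats at 1 week, and Glrx, a glutaredoxin, by 1.00 ± 0.23 (SE), adjusted p = 0.015. Gsr, glutathione reductase, which regenerates the substrate of the glutathione peroxidases, fell by 1.54 ± 0.23 (SE), adjusted p = 2.3e-04 in wild-type rats at 1 week, and Msrb1, a methionine sulfoxide reductase, by 2.60 ± 0.38 (SE), adjusted p = 1.9e-04. Among 25 selenoprotein genes and genes of their synthesis, 5 of them also in the list of thiol systems, 2 rose and 3 fell in BRCA1+/- rats at 1 week and 3 rose and 5 fell at 3 weeks; in wild-type rats 3 rose and 9 fell at 1 week and 2 rose and 4 fell at 3 weeks. Selenop, the selenium carrier of plasma, fell by 3.89 ± 0.38 (SE), adjusted p = 9.6e-06 in wild-type rats at 1 week, while Selenon, a selenoprotein of the endoplasmic reticulum, rose by 2.49 ± 0.29 (SE), adjusted p = 1.5e-04 at 3 weeks. Without replicate 3 of the wild-type 1-week group, 7 thiol-system genes rose and 12 fell in wild-type rats at 1 week and 3 selenoprotein genes rose and 10 fell. In BRCA1+/- rats at 1 week, 5 thiol-system genes then rose and 9 fell, and 2 selenoprotein genes rose and 7 fell. Without it, Gsr changed in wild-type rats at 1 week by -1.63 (adjusted p = 1.5e-04), Msrb1 by -2.21 (adjusted p = 3.2e-04) and Selenop by -3.78 (adjusted p = 5.8e-05).

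Cat was called lower in all 4 comparisons with controls, and some oxidase and peroxisome genes were called lower in each. As no comparison lacked a fall of Cat, these counts cannot show whether the genes moved with it. Of 20 oxidase genes tested, 10 fell in wild-type rats at 1 week and none rose (median -1.40), among them the peroxisomal oxidase Hao2 (-3.50 ± 0.36 (SE), adjusted p = 1.5e-05). In the other comparisons 5 fell each time, and 1, 2 and 2 rose in BRCA1+/- rats at 1 week, BRCA1+/- rats at 3 weeks and wild-type rats at 3 weeks. The peroxisome list, 27 genes tested, had 17 fall in wild-type rats at 1 week (median -1.40), with Amacr at -3.03 ± 0.38 (SE), adjusted p = 5.7e-05 and Hsd17b4, an enzyme of peroxisomal fatty acid oxidation, at -2.01 ± 0.27 (SE), adjusted p = 1.1e-04. It had 2 and 3 fall in BRCA1+/- rats at 1 and 3 weeks and 4 in wild-type rats at 3 weeks, and none rise in any of the 4. Of 30 mitochondrial housekeeping genes, none was called in BRCA1+/- rats at 1 week and 2 fell at 3 weeks; in wild-type rats 9 fell and 1 rose at 1 week and 4 fell at 3 weeks. Of 22 regulators of antioxidant genes, none was called in BRCA1+/- rats at 1 week and 1 rose and 2 fell at 3 weeks. In wild-type rats 3 regulators rose and 4 fell at 1 week, and 1 fell at 3 weeks. The 2 of 30 mitochondrial genes in BRCA1+/- rats at 3 weeks lie near the 6.52% of all genes called lower. The regulator counts in wild-type rats at 1 week lie near the 14.3% lower and 12.9% higher of all genes. Nfe2l2, which encodes NRF2 and was picked out after its values were seen, fell by 1.27 ± 0.29 (SE), adjusted p = 0.0044 in wild-type rats at 1 week. Ppara, the lipid-sensing receptor that drives peroxisomal genes, was the only regulator that fell in 3 of the 4 comparisons. In BRCA1+/- rats at 3 weeks it changed by -1.66 ± 0.51 (SE), adjusted p = 0.039, and in wild-type rats at 3 weeks by -1.66 ± 0.51 (SE), adjusted p = 0.041. Omission of replicate 3 of the wild-type 1-week group gave wild-type 1-week counts of 9 lower and 1 higher for the oxidases, 16 lower and 1 higher for the peroxisome, 10 lower for mitochondrial housekeeping, and 4 lower and 4 higher for the regulators. The peroxisome list then had 4 and 6 genes lower in BRCA1+/- rats at 1 and 3 weeks, and mitochondrial housekeeping had 1 and 6 lower there and 8 in wild-type rats at 3 weeks. Hao2 was then -3.20 (adjusted p = 4.9e-05), Amacr -3.09 (adjusted p = 1.9e-04), Hsd17b4 -1.80 (adjusted p = 1.6e-04) and Nfe2l2 -1.42 (adjusted p = 0.002) in wild-type rats at 1 week.

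**Figure D5:**
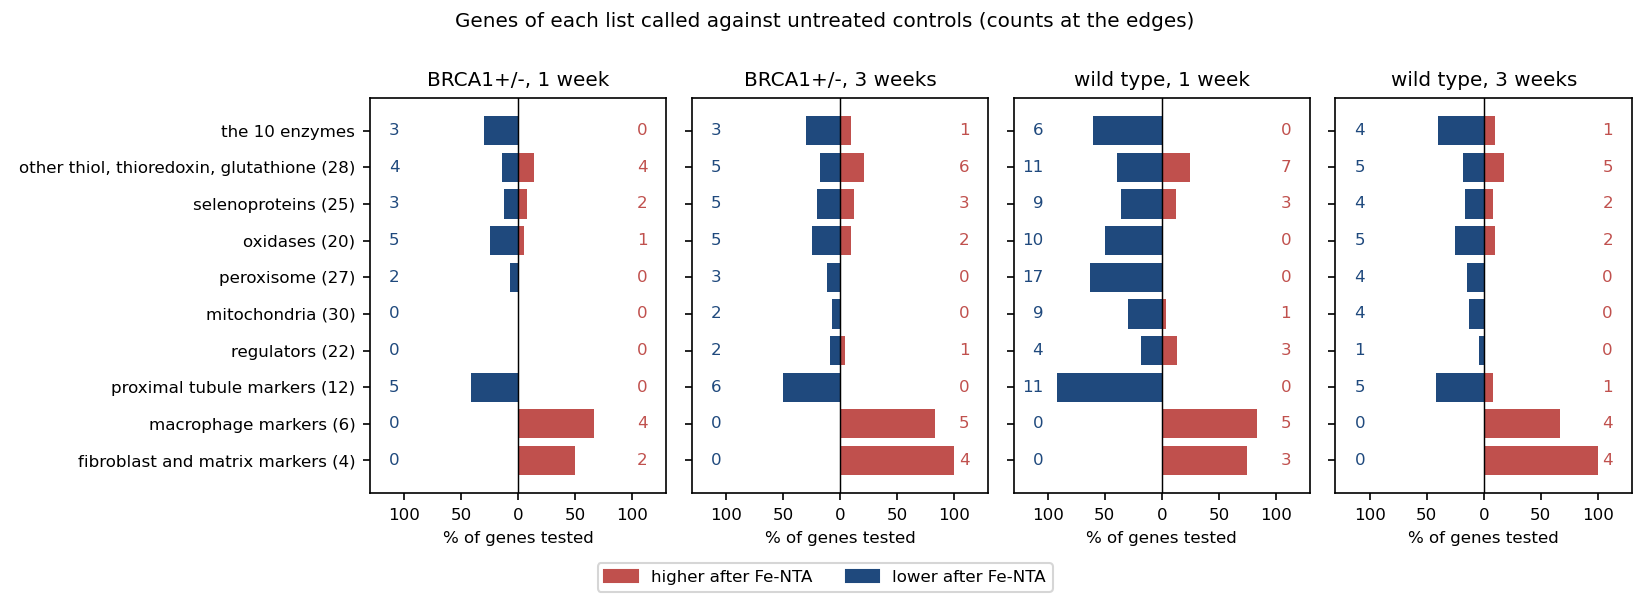
Share of genes tested (x axis, %; number tested in brackets) called higher (red, right) or lower (blue, left) after Fe-NTA in each comparison with untreated controls, for the 10 enzymes, 6 lists of related genes and 3 lists of cell type markers; the numbers of genes are printed at the edges. In wild-type rats at 1 week 6 of 10 enzymes, 17 of 27 peroxisome genes and 11 of 12 proximal tubule markers were lower, against 14.3% of all genes.

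Markers of cell types moved in the same comparisons. The 12 proximal tubule markers averaged 6.13 to 6.31 scaled log2 units per array in untreated BRCA1+/- cortex, 3.81 to 4.97 after 1 week and 3.89 to 5.11 after 3 weeks. In wild-type cortex they averaged 6.37 to 6.41 untreated, 2.23 to 3.30 after 1 week and 4.63 to 5.23 after 3 weeks. In wild-type rats the 1-week arrays were lowest and the 3-week arrays between them and the controls, the order also seen for Cat, Gpx1, Gpx3 and Prdx5. Array means of the peroxisome list had it too, at 2.29 to 2.39 untreated, 0.87 to 1.46 after 1 week and 1.79 to 1.83 after 3 weeks. So did those of the oxidase, selenoprotein and mitochondrial housekeeping lists. The order was thus not particular to the proximal tubule markers. In BRCA1+/- rats 5 and 6 of the 12 fell at 1 and 3 weeks, and in wild-type rats 11 fell at 1 week and 5 fell and 1 rose at 3 weeks. Slc22a6, an organic anion carrier of the proximal tubule, changed by -4.99 ± 0.53 (SE), adjusted p = 1.7e-05 in wild-type rats at 1 week. Of the 12, 10 fell without replicate 3 of that group, and Slc22a6 was -4.95 (adjusted p = 1.0e-04). In bulk cortex, fewer cells of a type and less RNA per cell cannot be told apart, and the part of the proximal tubule markers' change in the falls of the enzymes was not tested.

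The 6 macrophage markers tested averaged -0.99 to -0.43 in untreated BRCA1+/- cortex, 0.75 to 1.29 after 1 week and 1.56 to 2.16 after 3 weeks, with 4 and 5 called higher. In wild-type cortex they averaged -0.71 to -0.61 untreated, 0.46 to 1.86 after 1 week and 1.49 to 2.09 after 3 weeks, with 5 and 4 called higher. Trem2, not well above background on either wild-type control, was at least 16.4-fold higher at 3 weeks. The limma test was of its measured log2 change, 4.65 (adjusted p = 1.4e-04), and not of this bound. The 4 fibroblast and matrix markers tested averaged 0.87 to 0.92 untreated, 2.45 to 3.23 after 1 week and 3.18 to 3.97 after 3 weeks in BRCA1+/- cortex. In wild-type cortex they averaged 0.75 to 0.77 untreated, 2.35 to 3.37 after 1 week and 2.42 to 3.32 after 3 weeks. The macrophage marker Adgre1 and the matrix gene Lum did not pass the filter. At 3 weeks, when Sod3 rose in both genotypes, all 4 fibroblast and matrix markers were called higher in both. At 1 week, when Sod3 was called in neither genotype, 2 of the 4 were called higher in BRCA1+/- rats and 3 in wild-type rats. From 1 to 3 weeks in wild-type rats Sod3 was called higher, by 1.42, and none of the 4 markers was called (median 0.23). In BRCA1+/- rats neither Sod3 (0.54) nor any of the 4 (median 0.78) was called between these times. The part of these markers in the rise of Sod3 was not tested. With replicate 3 of the wild-type 1-week group omitted, 2 of the 4 fibroblast and matrix markers and 3 of the 6 macrophage markers were called higher in wild-type rats at 1 week. Of 5 vascular smooth muscle and mesangial genes, 1 and 1 rose in BRCA1+/- rats at 1 and 3 weeks with 1 falling at 3 weeks, and 4 and 2 rose in wild-type rats. Of 5 red cell genes, 4 and 3 fell in BRCA1+/- rats and 3 and 3 in wild-type rats. In BRCA1+/- rats 1 of 5 podocyte genes fell at each time and 2 of 7 collecting duct genes fell at 3 weeks, and in wild-type rats at 1 week 2 of 6 endothelial, 1 of 5 podocyte and 1 of 5 distal tubule genes fell and 1 of 7 collecting duct and 1 of 2 adrenal genes rose. In wild-type rats at 3 weeks 3 collecting duct genes rose and 1 fell, and 1 distal tubule gene rose. The wild-type 1-week podocyte and distal tubule calls were not made without replicate 3 of that group. No adipose or lymphocyte gene was called, of 2 and 1 tested.

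For each enzyme the genes nearest in pattern were those with the smallest root mean square difference over the 16 arrays, after each gene was centred on its own mean. Given as log2 units, they were Pam16 (0.16) and Bnip3 (0.17) for Sod1, whose own root mean square spread was 0.69. Cat, with a spread of 1.03, lay nearest to Galnt11 (0.18) and to Dao (0.23), and Dao is a peroxisomal oxidase. Gpx3, with a spread of 1.34, lay near to Kcnj15 (0.34). Sod3, with a spread of 0.83, lay nearest to Cygb (0.30) and Mta3 (0.31). For Sod2 the genes were Rcan1 (0.22) and Tmem59 (0.22), and for Gpx1 Tcta (0.16) and Kcnj16 (0.17). The peroxiredoxins lay nearest to Sec13 (0.14) and Copg1 (0.17) for Prdx1, to Arl2bp (0.17) for Prdx3, to Mgst3 (0.20) and Ak3 (0.21) for Prdx5, and to Ufsp2 (0.12) and Mcts1 (0.14) for Prdx6. Among the members themselves, Sod1 and Gpx1 were each other's nearest (0.33), as were Cat and Gpx3 (0.49) and Prdx1 and Prdx3 (0.31), while the member nearest to Sod3 was 0.91 away. The spreads not given above were 0.50 for Sod2, 0.66 for Gpx1, 0.32 for Prdx1, 0.40 for Prdx3, 0.49 for Prdx5 and 0.47 for Prdx6. The distance between Prdx1 and Prdx3 was thus about as large as the spread of Prdx1 itself.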

How the data were processed

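Cortex RNA was Cy3-labelled and each sample read on its own 1-colour Agilent rat array. The deposited scanner files hold each spot's processed, mean and local background intensity, unscaled between arrays, from Agilent Feature Extraction 10.7 per the file headers and the submitters' processing notes. The authors' deposited value table is in log2; compared with the scanner values it equals the log2 processed signal less a per-array 75th percentile, without centring by gene, and served as an alternative.

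Of 62976 spots per array, 4259 control spots and all outlier spots were dropped, spots of 1 probe averaged, and each array scaled by its 75th percentile over 45598 probes. A probe was kept where all arrays of some group had it well above background (20431 of 45483 measured everywhere), and the brightest probe stood for its gene (16007 genes; 2233 of 21229 probes matched by accession took a newer symbol). The fit was limma 3.58.1 in R 4.3.3 (lmFit, eBayes; 10 residual and 4.87 prior degrees of freedom, median residual SD 0.395) on 6 group means, two-sided, with Benjamini-Hochberg adjustment, after a test on simulated data. It gave 12 comparisons: treated against control, 3 weeks against 1 week, genotype within each condition and on average, and genotype by treatment. The number of arrays limits the precision. Same-numbered arrays did not deviate together (correlations of -0.34 to 0.44 over 36 pairs), so they were not paired.

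The members and lists were chosen with earlier results of these data known. Named beside the members were 5 relatives (Gpx2, Gpx4, Prdx2, Prdx4, Ccs), genes from the 2 smallest p-values of each list and comparison, and the 2 genes nearest in pattern; some of these genes are not reported here. An "at least" fold sets the brighter group's mean against the dim group's detection limit. The files' coordinates (header build rn4) were not used. Alternatives covered scaling, background correction, filter, probe rule, slide, replicate block, arrays fitted and left-out arrays; array brightness (log2 of the 75th percentile) as a covariate, and leaving replicate 3 of the wild-type 1-week group out of every comparison, were added after the data were seen.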

Additional observations from a re-analysis of the deposited data

How the results depend on the processing

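The 23 calls in members against controls or between 3 weeks and 1 week kept their sign under every alternative tried. All 23 were still called with the authors' value table, dim values at the detection limit, the mean over a gene's probes, each probe tested or the slide as a block, 21 with the replicate number as a block, and 15 to 23 with 1 array left out; the block ended Gpx3 in BRCA1+/- rats at 1 week and in wild-type rats at 3 weeks. Same-numbered arrays did not deviate together, so the numbers give no pairing. Of the 6 calls in wild-type rats at 1 week, 3 were made with normexp, 2 within slide 1 and 0 within slide 2. Of the 5 at 3 weeks, 3 were made with quantile scaling, 1 with normexp, 1 without the filter, 0 within either slide and 2 with brightness as a covariate. In BRCA1+/- rats, of the 3 calls at 1 week 1 was made with normexp, 0 without the filter, 0 within either slide and 1 from the groups compared alone, and of the 4 at 3 weeks, 1 with normexp, 2 without the filter and 0 within either slide. Of the 5 between 3 weeks and 1 week in wild-type rats, 2 were made with normexp, 0 without the filter, 0 within either slide, 2 from the groups compared alone and 3 with brightness. The test over 6 groups called 4 without the filter, 2 within slide 1 and 0 within slide 2. The within-slide fits have fewer arrays and the unfiltered fit more genes; otherwise the cause was not tested. With 1 array left out the calls numbered 0 to 5 and 0 to 4 in BRCA1+/- rats at 1 and 3 weeks, 4 to 7 and 1 to 5 in wild-type rats, 0 to 5 between 3 weeks and 1 week in wild-type rats, and 5 to 8 over 6 groups; in the comparisons with controls the fewest came without a control array.

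Signs turned only in changes that were not called. With normexp these were, in wild-type rats at 1 week, Prdx1 (0.10) and Prdx3 (0.11); at 3 weeks Sod2 (0.22), Gpx1 (0.10), Prdx3 (0.26), Prdx5 (0.43) and Prdx6 (0.12); Prdx3 at 3 weeks against 1 week (0.14); and Prdx6 in BRCA1+/- rats at 3 weeks (0.12). Prdx6 in BRCA1+/- rats also turned within slide 1 at 1 week (0.11) and at 3 weeks (0.26), and at 3 weeks with quantile scaling (0.026) and the replicate block (0.13). In wild-type rats Prdx3 at 3 weeks turned within slide 2 (0.0071), as did Prdx3 (0.71) and Prdx6 (-0.29) at 3 weeks against 1 week, where brightness gave Prdx3 0.023. With 1 array left out, Sod2 (-0.89 to 0.030) and Prdx6 (-0.24 to 0.16) in BRCA1+/- rats at 3 weeks, Prdx3 in wild-type rats at 1 week (-0.71 to 0.059) and Prdx3 at 3 weeks against 1 week (-0.40 to 0.37) changed sign. Over all genes in wild-type rats at 1 week 4346 were called, against 1698 with normexp, 2656 of 34680 without the filter, 1753 from the groups compared alone, and 1089 and 213 within slides 1 and 2. The dimmest arrays, both wild-type controls, limit what could be detected there.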
